A study of Mus musculus with 10 samples.

Results

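Cilia and the sperm tail are built on the axoneme, a ring of microtubule doublets that slide against each other under the force of dynein motors. Intraflagellar transport (IFT) trains, made of complexes A and B, carry building blocks along the axoneme. The BBSome, named after Bardet-Biedl syndrome, rides on these trains and sorts membrane proteins, while the tectonic proteins sit in the transition zone that gates the ciliary base. In the testis the axoneme grows out in round spermatids, after meiosis has ended. The 87 genes described here are the mouse protein-coding genes whose symbols begin with Ift, Bbs, Dnah, Dnal, Cfap, Drc, Rsph or Tctn, most of them followed by a digit, out of 21774 protein-coding genes that RefSeq annotates on GRCm38.p6. They hold 14 transport (Ift) genes, 8 Bbs genes, 62 axonemal genes (34 Cfap, 15 Dnah, 7 Rsph, 3 Dnal and 3 Drc) and 3 Tctn genes. No symbol began with Dnai in this annotation, where the dynein intermediate chain genes were called Dnaic1 and Dnaic2.

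ARID2, a subunit that defines the PBAF form of the SWI/SNF chromatin remodeler, was mapped by CUT&RUN, in which a nuclease tethered by an antibody releases the chromatin around its target. The spermatogenic cells came from testes of CD1 mice, with no genetic alteration named in the labels, in which WIN 18,446, an inhibitor of retinoic acid (RA) synthesis, was given from P1 to P10 and RA once at P11 to make spermatogenesis synchronous. The cells were taken at P28, which is 17 days past the RA dose, and at P28.5, at 17.5 days. The labels describe them as populations enriched for prophase-I spermatocytes, in pachynema and diplonema, and for metaphase spermatocytes. Each age had 2 libraries for ARID2, 2 for BRG1, the ATPase of the complex, and 1 control that received no primary antibody. All groups received the same WIN 18,446 and RA treatment, and the cell suspensions were enriched and not pure. The paper reports more round spermatids in the tubules at P28.5 than at P28, and a marked fall in leptotene and zygotene spermatocytes. The ages thus differ in cell make-up, and whether this bears on differences between the lists was not tested. The data used here are 2 deposited lists, 1 per age, of the transcription start sites (TSSs) in ARID2 cluster-1 (Cl-1), the cluster with ARID2 signal. Each list gave a position and a gene name for every TSS, with no signal value and no strand. It was made from averaged replicates, so neither a depth, a spread between replicates nor a test could be computed from it. The paper gives the mapped reads of each library, and reports far fewer called ARID2 peaks at P28.5 than at P28. The lists hold no expression values, so the labelled cell type could not be checked against marker genes.

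The list of P28 had 11553 rows with 4095 gene names, and that of P28.5 had 8514 rows with 2707 names. A gene was counted as listed where a row carried its symbol or a synonym that belongs to no other gene. Of all protein-coding genes, the list of P28 named 16.8% and that of P28.5 named 11.6%. These shares differed by strand, at 26.0% of plus-strand and 7.61% of minus-strand genes at P28, and at 20.4% and 2.86% at P28.5. Where a position carried the name of a plus-strand gene, it lay within 150 bp of a 5′ end of that gene in 88.5% of cases at P28 and 94.9% at P28.5. For minus-strand names this held in 25.7% and 65.4%, and another 27.6% and 3.85% lay within 150 bp of the 3′ end alone, the lower coordinate. For a minus-strand gene the lists may therefore give the wrong end or none, and its absence, or its distance from the nearest position, says little about ARID2 at its start. The members were split almost evenly, with 42 on the plus strand and 45 on the minus strand.

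The promoters of 5 listed plus-strand members and of the 2 transport genes on that strand that were on neither list are shown to give the sequence behind these rows. Each run covers 120 bases before and 20 bases from an annotated start site on the plus strand of GRCm38.p6. Capitals mark the letters GTTGCC or their reverse complement GGCAAC, the half-site of the X-box, the element that RFX transcription factors bind in front of many cilium genes.
Ift57 (chr16:49699174-49699313): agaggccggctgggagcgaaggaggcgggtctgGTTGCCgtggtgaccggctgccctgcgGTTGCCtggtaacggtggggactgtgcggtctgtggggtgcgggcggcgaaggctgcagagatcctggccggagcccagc
Ift88 (chr14:57423951-57424090): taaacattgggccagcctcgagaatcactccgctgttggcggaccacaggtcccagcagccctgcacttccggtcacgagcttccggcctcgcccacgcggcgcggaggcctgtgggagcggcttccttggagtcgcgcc
Ift140 (chr17:25015966-25016105): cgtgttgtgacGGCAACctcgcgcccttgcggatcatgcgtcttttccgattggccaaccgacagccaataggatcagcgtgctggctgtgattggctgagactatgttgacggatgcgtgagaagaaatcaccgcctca
Bbs12 (chr3:37312427-37312566): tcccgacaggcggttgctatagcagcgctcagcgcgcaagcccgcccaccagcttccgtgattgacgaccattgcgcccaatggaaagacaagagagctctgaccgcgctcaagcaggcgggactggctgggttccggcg
Dnah10 (chr5:124724965-124725104): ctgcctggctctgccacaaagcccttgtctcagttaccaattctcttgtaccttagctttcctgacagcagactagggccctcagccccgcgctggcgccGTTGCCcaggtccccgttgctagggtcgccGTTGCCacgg
Ift22 (chr5:136908030-136908169): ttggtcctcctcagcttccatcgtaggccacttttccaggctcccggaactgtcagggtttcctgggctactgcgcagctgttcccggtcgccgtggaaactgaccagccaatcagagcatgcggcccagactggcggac
Ift43 (chr12:86082441-86082580): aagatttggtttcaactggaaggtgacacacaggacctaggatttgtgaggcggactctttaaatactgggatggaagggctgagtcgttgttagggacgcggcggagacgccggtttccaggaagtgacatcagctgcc
Ift57, Ift88, Ift140 and Bbs12 had 12 to 14 CpG dinucleotides in these 140 bases, and Dnah10, Ift22 and Ift43 had 7 or 8. In Ift57, a subunit of complex B, the half-site began 87 and 60 bases before the start site. The match at 60 bases is the first part of the full X-box form that is counted below. In Ift140, a subunit of complex A, the half-site lay on the other strand, 109 bases before the start. Dnah10, a heavy chain of the inner dynein arm, had it 20 bases before and 10 bases after the start. The 140 bases shown for Ift88, Bbs12, Ift22 and Ift43 did not hold these letters. Ift88 did hold them in the wider windows around all its starts that are counted below.

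Of the 87 members, 17 were listed at P28, a share of 19.5% (95% Wilson interval, 12.6 to 29.1) against 16.8% of all protein-coding genes. At P28.5 there were 11, or 12.6% (7.21 to 21.2), against 11.6%. Both shares were near the background. The intervals cover counting error only, and genes are not replicates of the experiment. On the plus strand 16 of 42 members were listed at P28 (38.1%) and 11 of 42 at P28.5 (26.2%), beside 26.0% and 20.4% of all plus-strand genes. On the minus strand 1 of 45 was listed at P28 and 0 of 45 at P28.5, and a count of 0 of 45 allows a share of up to 6.67%.

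The classes differed in their shares. Transport genes were listed in 7 of 14 cases at each age, 50.0% (26.8 to 73.2), and Bbs genes in 4 of 8 at P28 (50.0%, 21.5 to 78.5) and 3 of 8 at P28.5 (37.5%, 13.7 to 69.4). Axonemal genes were listed in 6 of 62 cases at P28 (9.68%, 4.51 to 19.5) and in 1 of 62 at P28.5 (1.61%, 0.285 to 8.59). Neither age listed any of the 3 Tctn genes, of which 1 lies on the plus strand. On the plus strand, which makes up 10 of 14 transport genes but 27 of 62 axonemal genes, 7 of 10 transport genes were listed at each age (70.0%, 39.7 to 89.2). P28 listed all 4 plus-strand Bbs genes by name and P28.5 listed 3 of them. The P28 rows of Bbs10 lay far from its start, so 3 of 4 had rows near their own starts at each age. Of the plus-strand axonemal genes 5 of 27 were listed at P28 (18.5%, 8.18 to 36.7) and 1 of 27 at P28.5 (3.70%, 0.657 to 18.3). The intervals of transport and axonemal genes did not overlap on that strand at either age. They treat genes of 1 averaged list as independent draws, so a difference between the classes was not tested. Transport genes stood above the plus-strand background of 26.0% (P28) and 20.4% (P28.5). Axonemal genes stood below it, with an interval that included it at P28. This background was not matched to the members' promoters. It was 35.8% and 30.8% among plus-strand genes in the upper 3 of 5 CpG classes described below. With a protein-coding start on the other strand within 1000 bp it was 50.0% and 48.4%. Only 4 of the 10 plus-strand transport genes have such a start, and all 4 were listed at both ages.

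**Figure D1:**
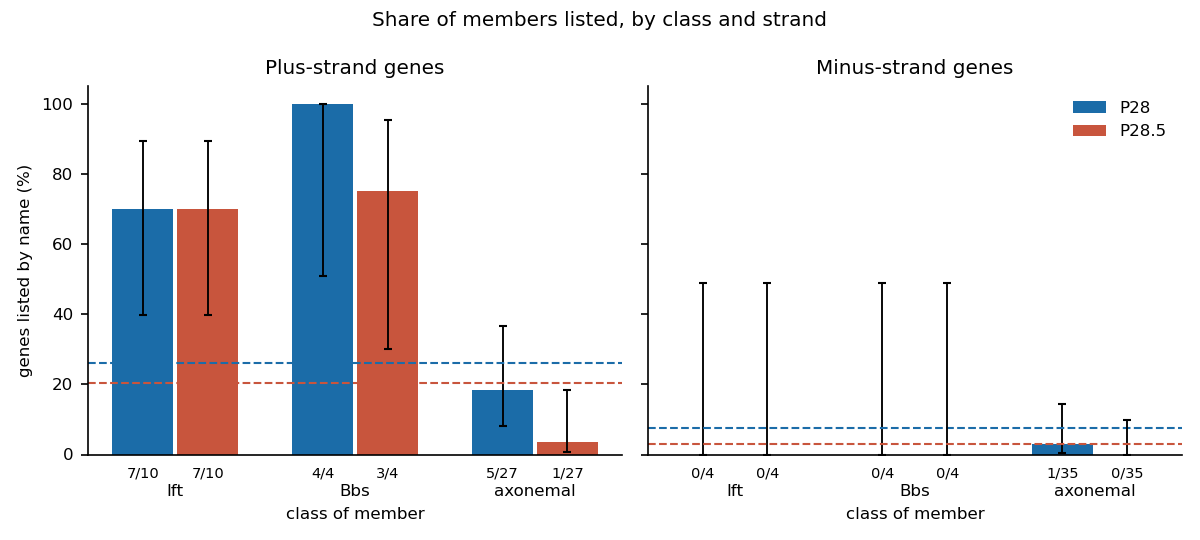
Share of genes listed in ARID2 Cl-1 (percent, y axis) for each class and age, on the plus and on the minus strand; error bars are 95% Wilson intervals, the numbers are listed genes of all genes, and dashed lines give the share of all protein-coding genes of that strand. Ift genes on the plus strand stood at 70.0% at both ages, and plus-strand axonemal genes at 18.5% and 3.70%.

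The counts by family are small and depend on strand, since 21 of 34 Cfap, 8 of 15 Dnah and 4 of 7 Rsph genes lay on the minus strand, with its background of 7.61% and 2.86%. The Cfap family, cilia and flagella associated proteins of many functions, had 2 of 34 genes listed at P28, both among its 13 plus-strand genes. At P28.5 it had 0 of 34, which allows up to 8.82%. On the plus strand alone 0 of 13 allows up to 23.1%, above the 20.4% of all plus-strand genes. The Dnah family, the heavy chains of the dynein arms, had 3 of 15 at P28 (20.0%, beside 16.8% of all genes). Of these, 2 were among its 7 plus-strand genes. At P28.5 it had 0 of 15, which allows up to 20.0%, and 0 of 7 on the plus strand, which allows up to 42.9%. Drc genes, which encode the nexin-dynein regulatory complex between doublets and all lie on the plus strand, had 1 of 3 at each age. None of the 7 Rsph genes, which encode radial spoke proteins, nor the 3 Dnal genes, light and light intermediate chains, was listed under its own name.

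The members' rows lay close to their starts, with 2 exceptions. The members had 60 rows at 40 positions at P28 and 35 rows at 27 positions at P28.5, with 23 positions in both lists. Of the 40 positions at P28, 14 fell exactly on an annotated 5′ end of the gene and 38 within 150 bp of one. All 27 positions at P28.5 lay within 150 bp, 12 of them exactly on a 5′ end. The 2 positions farther away belonged to Bbs10, at 33084 bp, and Cfap410, at 8297 bp.

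**Figure D2:**
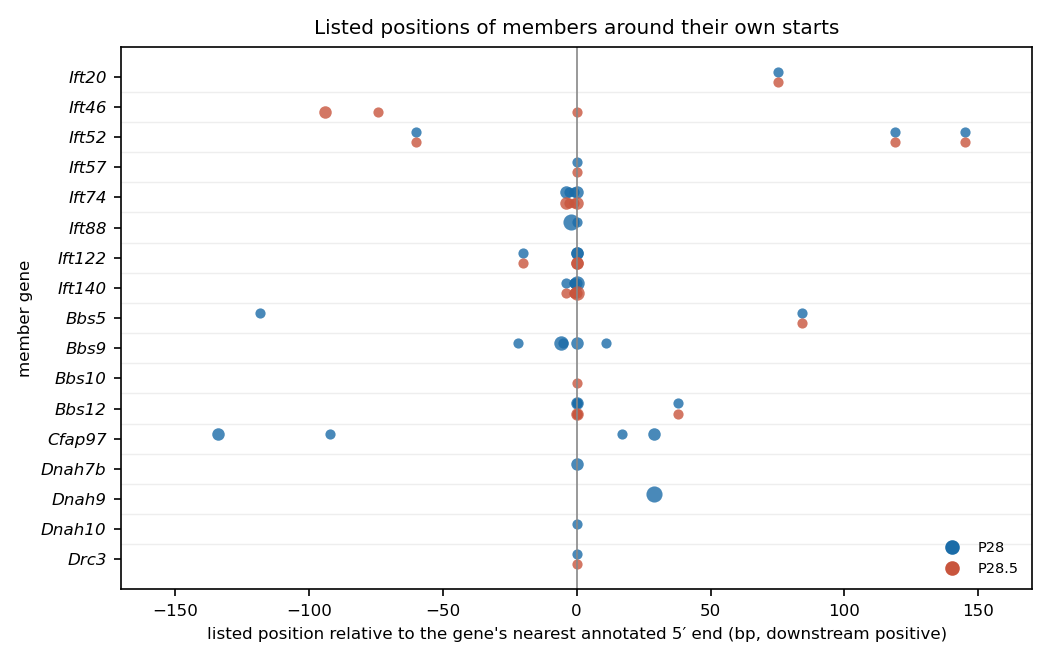
Listed positions relative to the nearest annotated 5′ end of the same gene (x axis, bp, downstream positive) for the listed members (y axis), blue for P28 and red for P28.5; each dot is a position and its area grows with the number of rows. The 42 distinct positions drawn lay within 145 bp of a 5′ end, and the 2 farther ones, of Bbs10 and Cfap410, are not drawn.

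Among the complex B genes, Ift20, Ift52, Ift57 and Ift74 had the same rows at both ages. Ift20 (chr11:78536361-78541732, GeneID 55978), which also acts at the Golgi, had 1 row at 78536436, 75 bp past its start. Ift57 (chr16:49699294-49765126, GeneID 73916) had 1 row at its only annotated 5′ end. Ift52 (chr2:163017117-163046155, GeneID 245866), part of the complex B core, had 3 rows between 163017293 and 163017498. Ift74 (chr4:94603266-94693233, GeneID 67694), whose protein helps to carry tubulin, had 6 rows at 4 positions from 94614435 to 94614491, at an internal start site about 11 kb into the gene (11169 to 11225 bp). A row named Plaa, the neighbour on the other strand, lay 5 bp from the outermost Ift74 start at both ages.

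The other complex B genes with rows among the members were listed at 1 age each. Ift88 (chr14:57424064-57517936, GeneID 21821), a core gene without which cilia do not form, had 5 rows at P28, at 57424069 and 57424071. At P28.5 it had none, and the nearest listed position was 341967 bp from its starts. Ift46 (chr9:44770456-44792714, GeneID 76568), which links outer dynein arms to the trains, went the other way, with no row at P28 and 4 rows at P28.5 between 44772915 and 44773009. These rows lay at the start of its curated RefSeq transcript and up to 94 bp upstream of it, 2553 bp inside the outermost model start, and at P28 the nearest listed position was 26391 bp away. Ift88 and Ift46 thus kept the transport count at 7 at both ages, with 6 transport genes in common. Without replicate values, whether such a change between the lists exceeds the spread between libraries was not tested.

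For complex A, Ift122 (chr6:115853379-115926699, GeneID 81896) had 5 rows at 3 positions and Ift140 (chr17:25016083-25099499, GeneID 106633) 7 rows at 5 positions, at both ages. Ift140 had the highest CpG ratio of the members, 1.05 observed over expected CpG within 500 bp of its start. Ift43, the remaining plus-strand complex A gene among the members, was on neither list. Its closest listed position was at 86780 bp at P28 and at 159277 bp at P28.5. Ift22, a small GTPase of complex B on the plus strand, was likewise unlisted, with the nearest position 42900 bp away at both ages. Of the 4 minus-strand transport genes, Ift27, Ift81 and Ift172 had no listed position within 50 kb, the nearest being 50196 bp from Ift172. Ift80, a peripheral complex B gene, had 3 rows named Smc4 upstream of its start, 292 to 417 bp away, at both ages. Smc4, a condensin subunit gene, starts 58 bp from Ift80 on the other strand, so signal at these positions cannot be told apart between the pair.

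Among the Bbs genes, those of the BBSome itself and those of its chaperonin both had rows. Bbs12 (chr3:37312547-37321450, GeneID 241950), a chaperonin-like gene, had 5 rows at 4 positions from 37312547 to 37312751 at both ages. A row named Cetn4 lay 62 bp upstream, between the start of Bbs12 and that of Cetn4, which are 101 bp apart. Bbs5 (chr2:69646848-69667571, GeneID 72569), a BBSome subunit that binds phosphoinositides, had rows at 69646730 and 69647255 at P28 and the second alone at P28.5. Bbs9 (chr9:22475559-22888283, GeneID 319845), a scaffold subunit, had 8 rows at 5 positions at P28 but none at P28.5, its closest listed position then being 86478 bp away. Bbs10 (chr10:111298679-111301736, GeneID 71769), the other chaperonin-like gene, had 2 rows at P28 that lay 33084 bp from its start, at the start of the lncRNA Gm40761. At P28.5 its 1 row was at its own start. Counted by position near their own start, Bbs5 and Bbs12 were therefore present at both ages, Bbs9 at P28 and Bbs10 at P28.5. The 4 minus-strand genes Bbs1, Bbs2, Bbs4 and Bbs7, all subunits of the BBSome, had their nearest listed position between 27937 and 249570 bp away. For the Tctn genes this distance ran from 19601 bp for Tctn2 at P28 to 282379 bp for Tctn3 at P28.5.

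Of the 6 listed axonemal genes, 5 had rows within 150 bp of a 5′ end of their own and 1, Cfap410, did not. Drc3 (chr11:60352881-60394342, GeneID 74665) was the 1 axonemal gene on both lists, with a row at 60353380, the start of its curated transcript, and a row named Tom1l2, whose start lies 24 bp from a Drc3 start on the other strand. Dnah10, whose promoter is printed above, had 1 row at P28, at its only annotated 5′ end (chr5:124725085-124834308, GeneID 56087). Cfap97 (chr8:46162095-46195590, GeneID 66756) had 6 rows at P28 from 46163559 to 46163870, within 134 bp of its inner starts. Dnah9 (chr11:65831324-66168581, GeneID 237806), an outer arm heavy chain and the 1 listed member on the minus strand, had 4 rows at P28 at 66168522. That position was 29 bp inside a Dnah9 start and 487 bp from the start of the plus-strand lncRNA Gm12296. Dnah7b (chr1:46066071-46373551, GeneID 227058), an inner arm heavy chain, had 2 rows at 46188689, which is 122618 bp inside the gene at the start of model transcripts. Dnah7a and Dnah7c are related genes, and whether reads were split among them was not tested. The row of Cfap410 (chr10:77978530-77985438, GeneID 67884), named by its older symbol 1810043G02Rik, lay 1509 bp past the end of the gene, at the end of the minus-strand gene Pfkl. Drc3 was thus on both lists, while the other 5 had rows at P28 and none at P28.5.

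**Figure D3:**
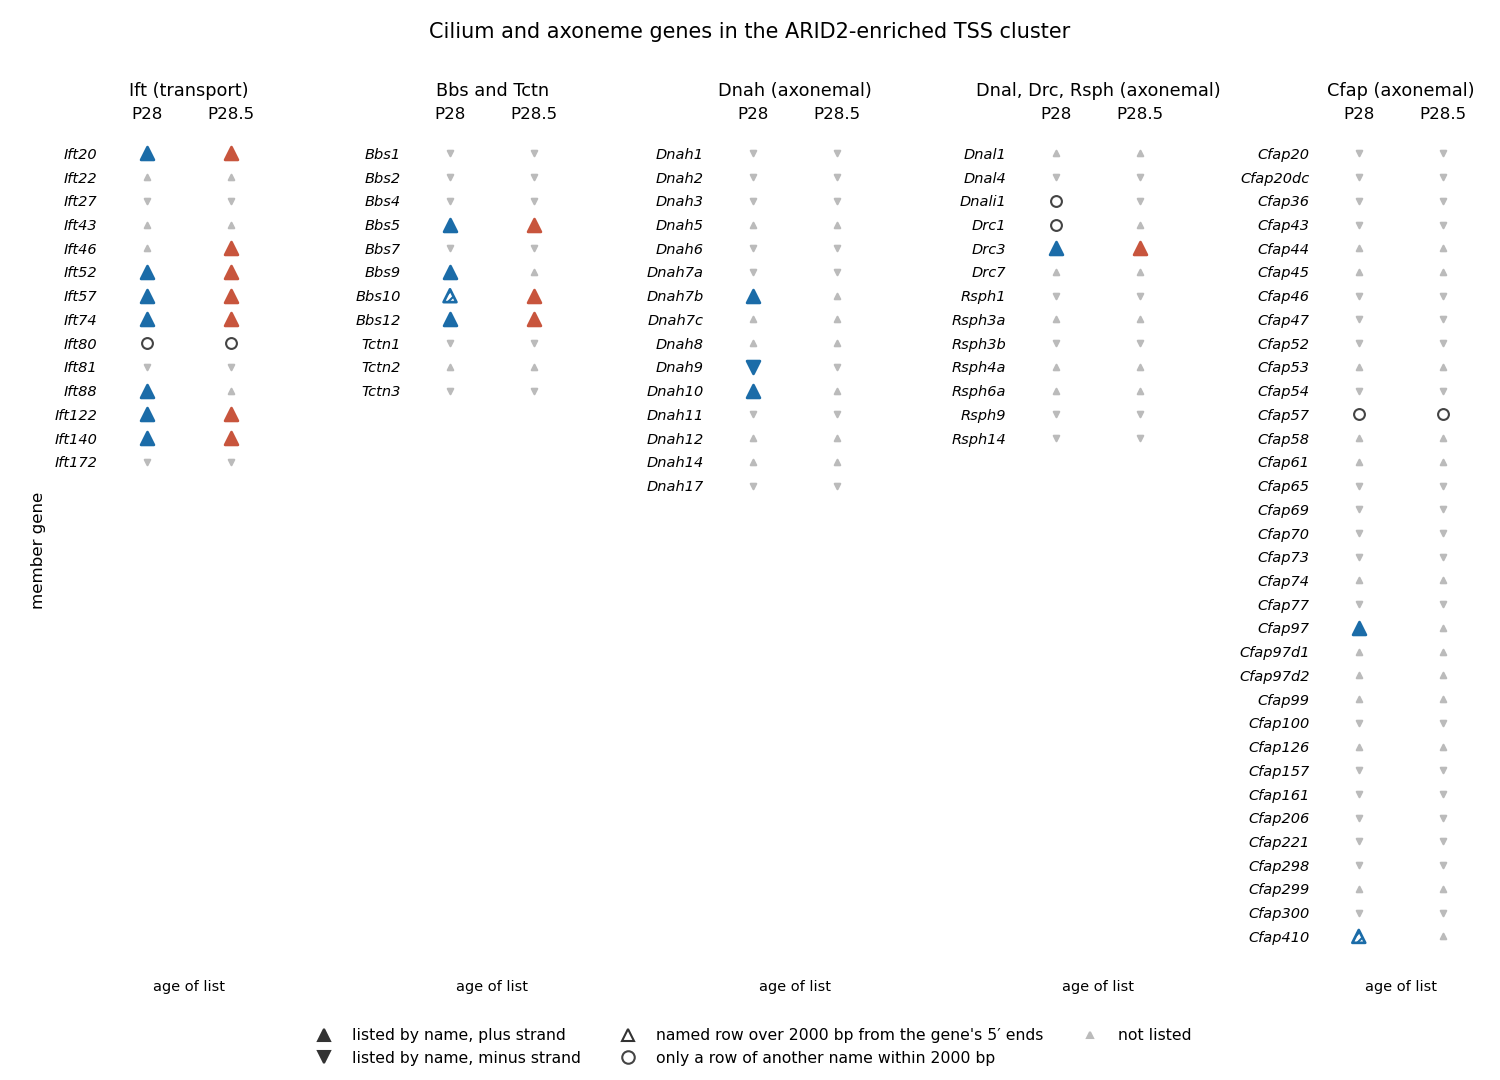
All 87 members (y axis) by class, with their state on the lists of P28 and P28.5 (x axis); large triangles are members listed by name, pointing up for the plus and down for the minus strand, hatched triangles mark a named row over 2000 bp from the gene's own 5′ ends, circles mark a row of another name alone within 2000 bp, and small grey triangles mark members with neither. The Ift column holds 7 listed members at each age, while the 62 axonemal genes hold 6 at P28 and Drc3 alone at P28.5.

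Counting a gene by any listed position within 2000 bp of its 5′ ends, whatever the name, gave 19 members at P28 (21.8%) and 13 at P28.5 (14.9%), against 17.3% and 14.8% of all protein-coding genes. Transport genes then came to 8 of 14 at each age, Bbs genes to 3 of 8 at each age, and axonemal genes to 8 of 62 and 2 of 62. The axonemal genes gained in this way included Cfap57 and Drc1. Cfap57, which helps to place inner dynein arms, had a row named Ebna1bp2 at both ages, 14 bp from its start on the other strand. Drc1 (chr5:30281335-30366695), a core gene of the nexin-dynein regulatory complex, had 2 rows at P28, 5 and 68 bp from its 5′ ends, which carried the name of its upstream neighbour Selenoi. The start of Selenoi itself was 48807 and 48943 bp away, so these rows fit Drc1 by place and Selenoi by name.

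Over both ages 18 members were listed, 10 at both, 7 at P28 alone and 1, Ift46, at P28.5 alone. Of the members listed at P28, 58.8% were also listed at P28.5, and 90.9% of those at P28.5 were also at P28. Over all protein-coding genes these shares were 50.5% and 73.1%, and 1847 genes were on both lists, 1814 on that of P28 alone and 681 on that of P28.5 alone. Over plus-strand genes, to which 17 of the 18 listed members belong, the shares were 57.0% and 72.8%, so the members were near the first. Transport genes gave 6 at both ages and 1 at each age alone, Bbs genes 3 at both and 1 at P28 alone, and axonemal genes 1 at both and 5 at P28 alone. By position within 2000 bp 2 Bbs genes were present at both ages, Bbs9 at P28 alone and Bbs10 only at P28.5, since the P28 rows of Bbs10 lie far from it.

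The classes also differed in features that the symbols did not select. The CpG ratio (CpG observed over expected) around the outermost start had a median of 0.715 in transport genes (0.192 to 1.05), 0.627 in Bbs genes (0.338 to 0.699) and 0.458 in axonemal genes (0.0959 to 0.870), beside 0.516 over all protein-coding genes. The 18 listed members had a median of 0.693 and the 22 plus-strand axonemal genes on neither list 0.428. Among all plus-strand genes the listed share moved with this ratio: in the lower 2 of 5 CpG classes (quintiles) 11.3% were on the list of P28 and 4.50% on that of P28.5, and in the upper 3 quintiles 35.8% and 30.8%. Within the upper 3 quintiles, 7 of 9 plus-strand transport genes were listed at P28 and 6 of 9 at P28.5, all 4 Bbs genes and then 3 of 4, and 3 of 19 axonemal genes (Cfap410, Dnah10 and Drc3) and then 1 of 19 (Drc3). Counted by name, the order of the classes was the same within these pooled quintiles as over all plus-strand members. Bbs10 and Cfap410 count at P28 through rows far from their starts. Pooling 3 quintiles does not hold the ratio constant, and whether the ratio accounts for the difference between classes was not tested. In the lower quintiles, Cfap97 and Dnah7b were listed at P28 out of 8 axonemal genes, and Ift46 at P28.5 as the single transport gene. For Cfap97 and Ift46 the outermost start stood apart from the listed one: the ratio was 0.0959 at the outermost Cfap97 start but 0.953 to 1.01 at the listed positions, and 0.192 against 0.574 to 0.623 in Ift46.

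**Figure D4:**
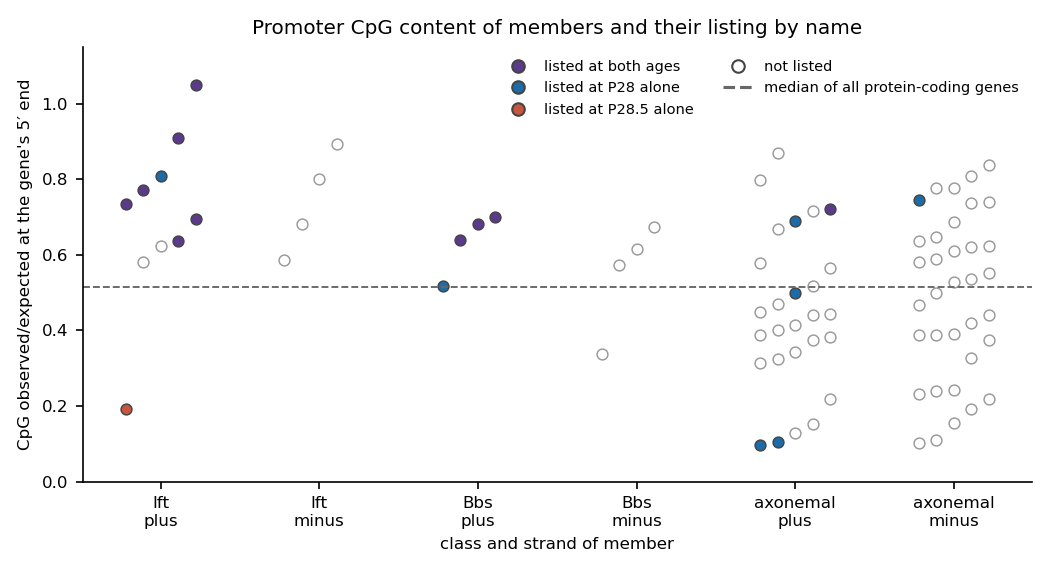
CpG ratio, observed over expected, within 500 bp of the outermost 5′ end (y axis) for the Ift, Bbs and axonemal members by class and strand (x axis); filled points are members listed at both ages (purple), P28 alone (blue) or P28.5 alone (red), open points are members on neither list, and the dashed line is the median of all protein-coding genes, 0.516. Transport genes lay mostly above the line (median 0.715) and axonemal genes on both sides of it (median 0.458).

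Of the 8 transport genes listed at either age, 4 shared their promoter with a gene on the other strand. A protein-coding start on the other strand lay within 1000 bp of 5 of 14 transport genes (35.7%), 1 of 8 Bbs genes (12.5%) and 7 of 62 axonemal genes (11.3%), beside 12.2% of all protein-coding genes. Of all plus-strand genes with such a partner, 50.0% were on the list of P28 and 48.4% on that of P28.5. All 4 plus-strand transport genes with a partner were listed at both ages, namely Ift20 with Tnfaip1 91 bp away, Ift74 with Plaa, Ift122 with Mbd4 2 bp away and Ift140 with Cramp1l 243 bp away. Bbs12 and Drc3 were listed too, and 3 plus-strand axonemal genes with a partner were not. Because CUT&RUN has no strand, signal at the listed positions of Ift20, Ift122 and Ift140 cannot be told apart from that of the partner. The same holds for Bbs12, with rows 101 to 305 bp from the Cetn4 start, and for Drc3, with its row 448 bp from that of Tom1l2. The rows of Ift74 lay 11188 bp or more from the start of Plaa, at the internal start. Ift52, Ift57, Ift88, Ift46, Bbs5, Bbs9 and Bbs10 had no such partner and were listed on 1 or both ages.

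X-box letters occurred in every class. In windows from 250 bases before to 50 bases after every annotated 5′ end, read on both strands, GTTGCC occurred in 43 of 87 members (49.4%) and in 19.7% of all protein-coding genes. It occurred in 8 of 14 transport genes (57.1%), 3 of 8 Bbs genes (37.5%), 29 of 62 axonemal genes (46.8%) and all 3 Tctn genes. Among the 18 listed members 8 had it (44.4%), and among the 22 unlisted plus-strand axonemal genes 8 did (36.4%). A gene counted if any of its windows matched, so genes with more annotated starts had more windows. The median number of 5′ ends was 2 over all members and over all protein-coding genes, and 3 in axonemal genes. The full form, GTTNCC and GGNAAC with 1 to 3 bases between, was found in 7 members (8.05%), Ift52 and Ift57 among them, and in 1.09% of all genes. The cAMP response element TGACGTCA, the site of CREM and CREB, occurred in 3 members (3.45%) and in 3.05% of all genes. A match of letters is a description and not a bound site, and the short and the full form can overlap.

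Genes of the same structures under other names were compared by counts, beside the shares of all protein-coding genes (16.8% and 11.6%) and of all plus-strand genes (26.0% and 20.4%). Of 22 IFT motor genes and IFT subunit genes with other names, 7 had rows at P28 (31.8%) and 6 at P28.5 (27.3%), all of them among the 13 plus-strand genes. The 6 at both ages were Kif3a, Kif3b and Kifap3, which encode kinesin-2, and Cluap1, Hspb11 and Wdr19. Of 20 other transition zone genes, 13 of them on the plus strand, 8 and 7 were listed, with 7 plus-strand genes at each age (53.8%). Ahi1, B9d2, Nphp4, Tmem107 and Tmem17 were among those at both ages. Of 9 other BBSome, chaperonin and regulator genes 3 were listed at each age, Sdccag8 at both, with 2 and then 3 of the 4 plus-strand genes among them. Of 44 other axoneme and sperm tail genes P28 listed 10 (22.7%) and P28.5 listed 4 (9.09%), with Ccdc103, Iqcd and Odf2 on both lists. On the plus strand these were 7 of 24 (29.2%) and 4 of 24 (16.7%), close to the background, so axoneme genes under other names were not below it at P28. Of 14 genes that encode assembly factors of axonemal dynein, which fold the arms in the cytoplasm, 7 (50.0%) and 6 (42.9%) were listed, all of them among 10 plus-strand genes. Dnaaf5, Dnaaf6, Pih1d1, Pih1d2, Wdr92 and Zmynd10 were on both lists. Among 8 transcription factor genes of cilium programs, 3 on the plus strand, P28 listed 3 (2 of them on that strand) and P28.5 listed Rfx1 alone.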

How the data were processed

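CUT&RUN libraries were made from spermatogenic cells of synchronized CD1 testes. Per the labels and the study's methods, the authors trimmed the reads with TrimGalore, aligned them to mm10 with Bowtie2, processed them with SAMtools, made tracks without duplicates or blocklisted regions with deepTools and csaw factors, expressed them as log2 over the control, averaged the replicates using WiggleTools, and clustered TSSs by k-means. The deposited lists hold genomic positions and gene names and no other value, neither count, signal nor score, so depth could not be taken from them. BRG1 libraries and signal tracks were not analysed here.

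Names were matched to RefSeq symbols, or to synonyms of 1 gene, of GRCm38.p6 (99.8% of names at each age). Named genes were all listed members, all Ift, Bbs and Tctn members, and members with a listed position of another name within 2000 bp. CpG ratios used 500 bp on either side of the outermost 5′ end. Promoter windows were read from RefSeq's GRCm38.p6 sequence, and equalled the promoter table in all 17492 genes it holds. Shares have 95% Wilson intervals, and a count of 0 was given a limit of 3 counts. No test was made, since each list was 1 average and genes are not replicates. The matching was tested on simulated lists. Alternatives were matching by position (2000 or 500 bp), symbols as written, rows near the gene's own starts, plus-strand genes, all annotated genes, and membership without Rsph3a and Rsph3b. A few names that this rule covers are not reported here. Membership by synonym was added after seeing the data. The members and lists were chosen with earlier results of these data known. The analysis ran in Python 3.11.15 with matplotlib 3.10.9, numpy 2.4.6 and scipy 1.17.1.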

Additional observations from a re-analysis of the deposited data

How the results depend on the processing

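Of 52 alternatives, 46 gave a share within the 95% Wilson interval of the value reported. Among the 6 outside it, plus-strand genes alone gave 38.1% of members at P28 and 26.2% at P28.5, and 100% of Bbs genes at P28 and 75.0% at P28.5. Since the lists name few minus-strand genes, these shares move by construction. The 100% counts Bbs10 through rows far from its start. With rows near the gene's own starts alone, the plus-strand Bbs share was 75.0% at each age. The alternatives recount the same genes and the intervals are wide, so a share inside its interval is not thereby shown to be stable. With plus-strand genes alone the transport share went from 50.0% to 70.0% at each age and still counted as inside. With all 49598 annotated genes in place of the protein-coding ones, the background was 8.23% at P28 and 5.45% at P28.5. Leaving out a replicate was not possible, because each list was made from averaged libraries. No paired analysis was possible because the result comes from no test.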

Other observations

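Genes that match the symbol rule only by a synonym were looked up after the lists had been seen. Of 12 such genes, Dnaic1, the outer arm intermediate chain also called Dnai1, had 3 rows at both ages at 41569698 and 41569794 on chr4, and Hspb11 (IFT25) had 4 rows at both ages. Wdr19 (Ift144), a complex A gene, had 2 rows at both ages. Trim32 (BBS11) had no row at P28 and 6 at P28.5, and Ttc8 (BBS8), a BBSome subunit, had none at P28 and 2 at P28.5. Arl6 (BBS3), the GTPase that recruits the BBSome to membranes, had 1 row at P28, 2024 bp from its start. The remaining 6, Dnaic2, Maats1, Mkks, Ppip5k2, Ttc26 and Wdr66, had no row at either age.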
